A study of Mus musculus with 10 samples.

Results

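Collagen genes were taken as all genes whose symbol is Col, a number, a and a second number (one alpha chain each), with at least 10 counts in 5 or more of 10 mouse jejunum libraries. Of 55414 gene identifiers, 44 carried such a symbol and 38 passed the minimum. The 38 were sorted by textbook type into 10 fibrillar, 8 basement membrane and 20 other collagen genes. The 6 under the minimum were Col2a1, Col19a1, Col9a1, Col26a1, Col10a1 and Col6a6, with 0 to 20 counts per library.

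The libraries were made from jejunum (the small intestine between duodenum and ileum) of male C57BL/6J mice that all carried floxed Retsat alleles (RetSat flox/flox). The 5 RetSat ko libraries came from mice with villin-Cre-ERT2 and the 5 control libraries from mice without it, so that the comparison asks what loss of retinol saturase, a vitamin A enzyme, changes in the intestine. All mice of both genotypes received tamoxifen by intraperitoneal injection for 5 days and then ate, for 14 weeks, a high-fat diet in which 60% of calories were fat, and their age was not given in the sources used here. The villin promoter drives the tamoxifen-activated Cre in intestinal epithelium, and since only RetSat ko mice carry Cre, its presence and the loss of Retsat cannot be told apart.

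Collagens are the main structural proteins of the extracellular matrix, built from alpha chains that wind around each other into a triple helix. Fibrillar collagens (types I, III, V, XI, XXIV and XXVII) make up the fibres of the intestinal wall, and basement membrane collagens (types IV, XV and XVIII) lie in the sheets under epithelium and around vessels and muscle cells. Among the other types, type VI forms beaded filaments, fibril-associated collagens decorate fibres, transmembrane collagens sit in cell membranes, and type VIII forms short-chain networks. In the gut most collagen RNA is made by fibroblasts, smooth muscle, pericytes and endothelium, and less by the epithelium in which villin-Cre acts.

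Depth was 102844680 to 128730695 counts per library, with 24559 to 26180 genes detected. Retsat was at 15.4 to 33.4 CPM (counts per 1000000 counts of the TMM-adjusted library size) in RetSat ko libraries, against 340 to 576 CPM in control libraries. Collagen genes held 31392 to 75741 counts per library. Since the labels do not state outright that each library is from its own mouse, the spread that p-values rest on is that among the samples as listed. RetSat ko 1 was the lowest library for 25 of 38 collagen genes, and values without it are given beside the main results. The choice of this library rests on those same values.

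No collagen gene differed between the genotypes at an adjusted p under 0.05. The edgeR quasi-likelihood test called 0 of 37 tested members (Col11a1 had too few counts to be tested), while over all genes it called 6 of 18654, or 0.0322%. At an unadjusted p under 0.05 it again found 0 of 37 members, against 2283 of 18654 genes, or 12.2%. DESeq2 and limma-voom likewise found 0 of 37 members at adjusted and unadjusted p under 0.05. In 0 of 38 members did the CPM of the 2 genotypes lie fully apart, against 2.31% of the 18654 genes. Adjusted p-values of the members ran between 0.619 and 0.998.

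The intervals show how large a difference these libraries could still hold. In 28 of 37 members the 95% interval of the fold change lay within a 2-fold difference in either direction, and in 20 it lay within 1.5-fold. Those 20 included 19 of the 20 members with the highest level per kilobase of exon, so the remaining width belonged mostly to low genes. Among the 37 tested members 21 had a positive log2 fold change (RetSat ko over control) and 16 a negative one, with a median of 0.04 beside 0.02 for all genes tested.

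**Figure D1:**
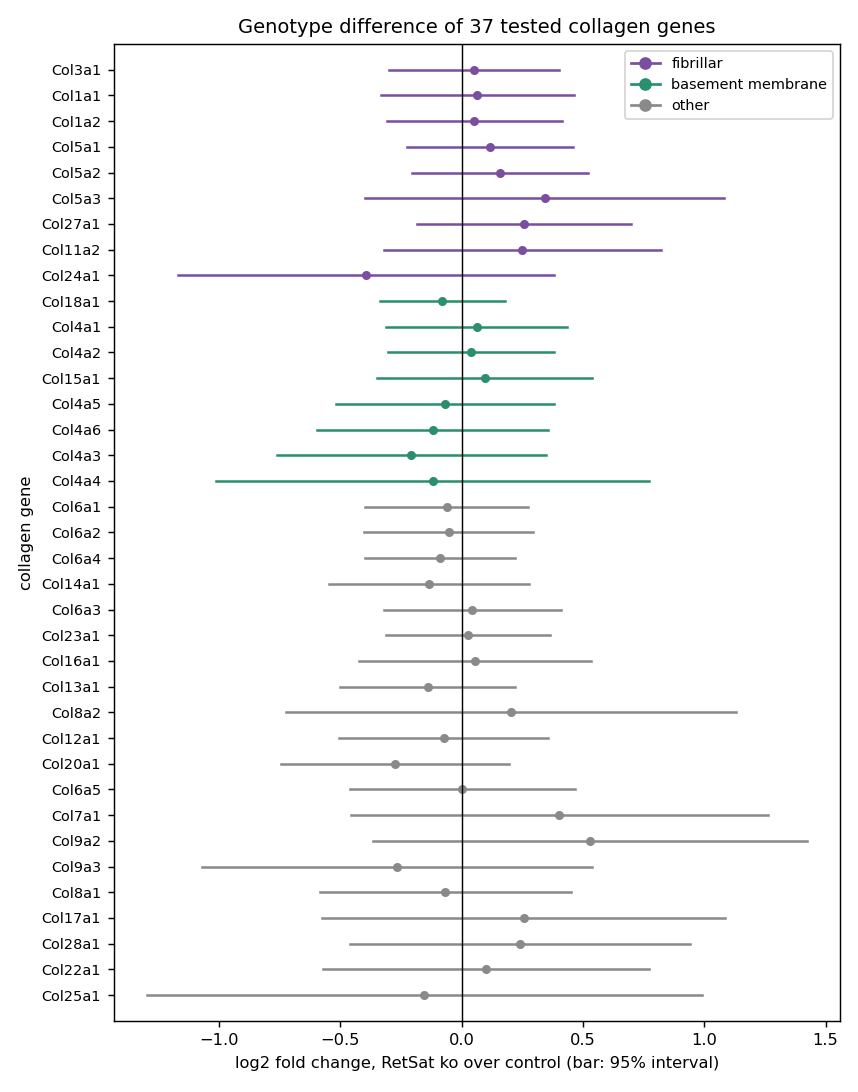
Log2 fold change of the 37 tested collagen genes, RetSat ko over control (x axis), with edgeR 95% intervals as bars and the gene class as colour; genes are ordered by level per kilobase within each class. Every interval crosses 0, and the intervals widen towards low genes, with the widest reaching -1.30 for Col25a1 and 1.43 for Col9a2.

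The summed level of the 38 genes was nearly the same in both genotypes, with one low library. It was 308, 444, 497, 568 and 517 CPM in RetSat ko 1 to 5, against 408, 514, 414, 529 and 455 CPM in control 1 to 5. RetSat ko 1 lay below all other libraries and RetSat ko 4 above all others, and the genotypes overlapped. The means were 466 ± 99.3 CPM in RetSat ko and 464 ± 55.7 CPM in control (SD, n = 5 each), a ratio of 1.01. The highest library exceeded the lowest 1.85-fold within RetSat ko and 1.30-fold within control. RetSat ko 2 to 5 averaged 506 ± 51.3 CPM.

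Each class gave the same picture. Fibrillar genes summed to 174 ± 39.2 CPM in RetSat ko and 166 ± 21.4 CPM in control. Basement membrane genes summed to 141 ± 29.9 CPM in RetSat ko and 141 ± 14.5 CPM in control, and the other genes to 151 ± 30.4 CPM in RetSat ko and 157 ± 20.8 CPM in control. Type VI genes made up most of the last class, with 115 ± 25.0 CPM in RetSat ko and 120 ± 15.8 CPM in control. RetSat ko 2 to 5 alone averaged 189.8 ± 19.99 CPM for fibrillar, 153 ± 16.0 CPM for basement membrane and 163 ± 15.7 CPM for other genes.

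**Figure D2:**
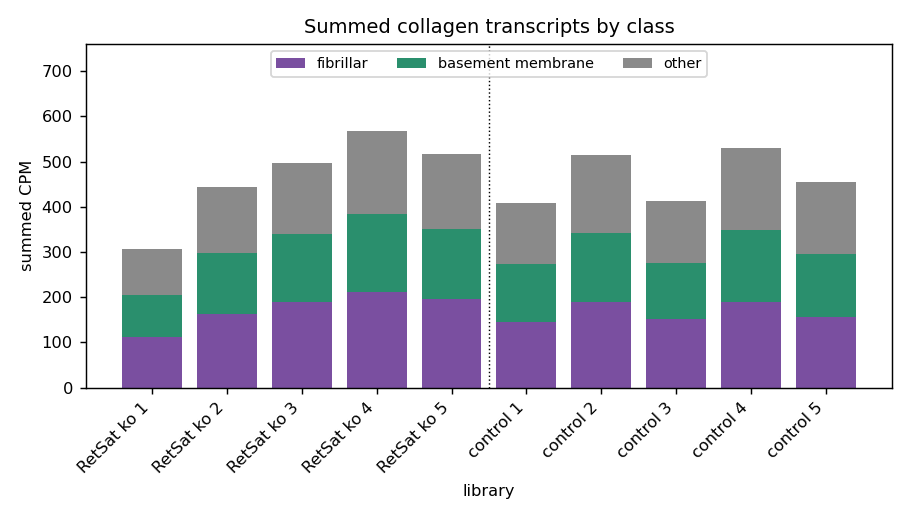
Summed CPM of the 38 collagen genes in each library, stacked by class; RetSat ko 1 to 5 stand left of the dotted line and control 1 to 5 right of it. RetSat ko 1 has the lowest sum (308 CPM) and RetSat ko 4 the highest (568 CPM), and the 3 classes keep similar proportions in all bars.

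From library to library the make-up of the collagen RNA varied less than its amount, since the fibrillar share spanned 1.07-fold within RetSat ko and the summed level 1.85-fold. Within control the contrast was smaller, with 1.10-fold for the fibrillar share and 1.30-fold for the summed level. Per kilobase of exon, fibrillar genes took 30.1 ± 0.852% of collagen RNA in RetSat ko and 28.8 ± 1.05% in control. Basement membrane genes took 33.1 ± 0.265% in RetSat ko and 33.2 ± 0.747% in control, and the others 36.7 ± 0.814% in RetSat ko and 38.0 ± 0.949% in control. The type I and III chains Col1a1, Col1a2 and Col3a1 together took 25.7 ± 0.679% in RetSat ko and 24.8 ± 0.852% in control. These shares overlapped between the genotypes and were not tested. They depend on the annotated exon length, which counts all transcripts of a gene.

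On that per-length scale Col3a1, the type III chain and main component of reticular fibres, ranked first with 9.10 ± 2.21 CPM per kilobase in RetSat ko and 8.79 ± 1.08 in control. It was followed by Col6a1 with 7.67 ± 1.64 CPM per kilobase in RetSat ko and 8.01 ± 1.19 in control. Col18a1 came next with 7.37 ± 1.24 CPM per kilobase in RetSat ko and 7.79 ± 0.947 in control, and Col4a1 after it with 6.35 ± 1.60 in RetSat ko and 6.08 ± 0.627 in control. Neighbours in this order lay within 1 SD of each other, except Col18a1 and Col4a1 in control. The order rests on the annotated exon length, which counts all transcripts of a gene, and differs by CPM alone. There Col6a1 (33.6 CPM in RetSat ko and 35.1 in control) lay below Col4a1 (47.4 in RetSat ko and 45.4 in control). The lowest of the 38 was Col11a1, with 0.00730 ± 0.00510 CPM per kilobase in RetSat ko and 0.00488 ± 0.00210 in control.

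Among fibrillar collagens 8 of 9 tested genes had a positive log2 fold change, and 0 of 9 passed the test. Their median was 0.12, beside 0.02 for all genes. The leading member, Col3a1 (chr1:45350698-45388866, plus strand, GRCm39), measured 58.7, 78.2, 92.3, 114 and 104 CPM in RetSat ko 1 to 5, against 72.4, 96.3, 82.2, 97.5 and 83.0 CPM in control 1 to 5. The lowest library was RetSat ko 1 and the highest RetSat ko 4, with the genotypes overlapping. Its log2 fold change was 0.05 ± 0.160 (SE; 95% interval -0.30 to 0.40; edgeR adjusted p = 0.921).

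The type I chains, which build the strongest fibres of the wall, followed the same libraries. Col1a1 (chr11:94827050-94843868, plus strand) was at 13.3, 22.9, 26.8, 23.4 and 25.5 CPM in RetSat ko 1 to 5, against 19.8, 27.4, 17.0, 22.8 and 20.1 CPM in control 1 to 5. Col1a2 (chr6:4504814-4541544, plus strand) was at 23.6, 40.4, 43.4, 44.9 and 39.1 CPM in RetSat ko 1 to 5, against 32.9, 41.4, 31.9, 44.8 and 33.8 CPM in control 1 to 5. For both chains RetSat ko 1 was the lowest library, standing clear of RetSat ko 2 to 5, which lay close together. Col1a1 had a log2 fold change of 0.06 ± 0.182 (edgeR adjusted p = 0.909) and Col1a2 one of 0.05 ± 0.164 (edgeR adjusted p = 0.923).

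Type V chains sit inside type I fibres and set their width. Col5a1 was at 5.93, 9.63, 9.93, 11.9 and 10.8 CPM in RetSat ko 1 to 5, against 8.21, 9.47, 8.76, 10.1 and 7.88 CPM in control 1 to 5. RetSat ko 2 to 5 all exceeded the control mean of 8.88 CPM, but RetSat ko 1 lay below every control library. For Col5a1 the log2 fold change was 0.12 ± 0.157 (edgeR adjusted p = 0.789), and for its partner Col5a2 it was 0.16 ± 0.167 (edgeR adjusted p = 0.729).

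Col5a3, the third type V chain, had the widest relative spread of the tested fibrillar genes, with 4.60-fold between its highest and lowest library. It was at 0.588, 1.01, 1.94, 1.74 and 2.71 CPM in RetSat ko 1 to 5, against 1.15, 1.35, 1.66, 1.21 and 0.937 CPM in control 1 to 5. RetSat ko 1 lay below and RetSat ko 3, 4 and 5 above all control libraries, and RetSat ko 2 within their range. The log2 fold change was 0.34 ± 0.340, with a 95% interval of -0.40 to 1.08 (edgeR adjusted p = 0.71).

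The remaining fibrillar genes were low. Col27a1, a chain best known from developing cartilage, was at 1.61, 2.24, 2.92, 2.13 and 1.97 CPM in RetSat ko 1 to 5, against 1.69, 2.50, 1.27, 1.97 and 1.66 CPM in control 1 to 5. RetSat ko 3 was highest and control 3 lowest, and the log2 fold change was 0.26 ± 0.203 (edgeR adjusted p = 0.625). Col24a1 was the only tested fibrillar gene with a negative value, at 0.294, 0.180, 0.232, 0.435 and 0.209 CPM in RetSat ko 1 to 5, against 0.306, 0.261, 0.206, 0.673 and 0.331 CPM in control 1 to 5. Control 4 alone stood high, and the log2 fold change was -0.39 ± 0.357 (edgeR adjusted p = 0.678). Col11a2, a cartilage fibril chain, had a log2 fold change of 0.25 ± 0.262 (edgeR adjusted p = 0.728), and Col11a1 held 2 to 22 counts per library.

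**Figure D3:**
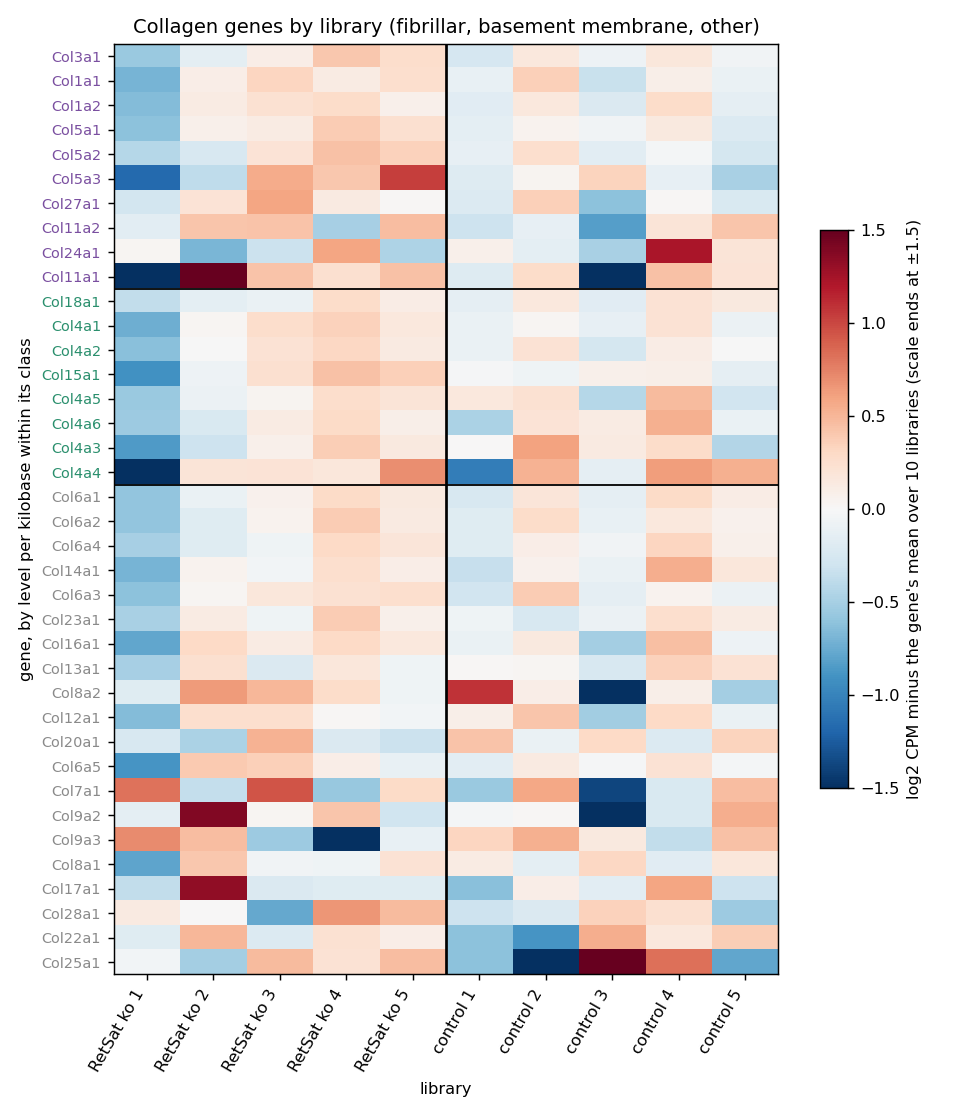
Log2 CPM of each of the 38 collagen genes minus its own mean over the 10 libraries, by library (columns, RetSat ko left of the line) and gene (rows, by level per kilobase within fibrillar, basement membrane and other classes, as label colours). The RetSat ko 1 column is blue, meaning low, for nearly all upper rows of each class, and was the lowest library for 25 of 38 genes.

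Basement membrane collagens were split, with 3 of 8 log2 fold changes positive, a median of -0.07 beside 0.02 for all genes, and 0 of 8 past the test. In all 8 of them RetSat ko 1 was the lowest library. Col18a1 (chr10:76888012-77002382, minus strand), whose C-terminal fragment is endostatin, was at 41.0, 47.8, 49.2, 63.6 and 57.0 CPM in RetSat ko 1 to 5, against 48.0, 59.0, 47.0, 61.2 and 58.2 CPM in control 1 to 5. The ranges largely coincided. Its log2 fold change of -0.08 ± 0.119 had a 95% interval of -0.34 to 0.18 (edgeR adjusted p = 0.811), the narrowest among the members.

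Col4a1 and Col4a2 encode the chains of the type IV network that all basement membranes share. Col4a1 was at 27.4, 46.4, 54.5, 57.9 and 50.9 CPM in RetSat ko 1 to 5, against 42.6, 46.7, 41.9, 53.1 and 42.8 CPM in control 1 to 5. Col4a2 was at 18.5, 28.3, 33.1, 35.5 and 31.5 CPM in RetSat ko 1 to 5, against 26.6, 33.2, 23.9, 30.9 and 28.5 CPM in control 1 to 5. Both genes were lower in RetSat ko 1 than in every other library, and RetSat ko 3 and RetSat ko 4 held the 2 highest Col4a1 values. Col4a1 had a log2 fold change of 0.06 ± 0.169 (edgeR adjusted p = 0.907) and Col4a2 one of 0.04 ± 0.156 (edgeR adjusted p = 0.939).

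Col15a1 (chr4:47208161-47313167, plus strand), a proteoglycan-like collagen of vessel and muscle basement membranes, spread widely in one genotype only. It was at 4.5, 8.02, 9.93, 11.4 and 10.8 CPM in RetSat ko 1 to 5, against 8.33, 8.06, 8.89, 8.93 and 7.69 CPM in control 1 to 5. The coefficient of variation was 31.3% in RetSat ko and 6.38% in control, and RetSat ko libraries lay on both sides of the narrow control range. Over RetSat ko 2 to 5 alone it was 14.8%. The log2 fold change was 0.09 ± 0.203 (edgeR adjusted p = 0.878), and the difference in spread was not tested.

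The remaining type IV chains, known from kidney, smooth muscle and other specialised membranes, were low. Col4a6 was at 0.627, 0.784, 1.00, 1.12 and 0.974 CPM in RetSat ko 1 to 5, against 0.658, 1.06, 1.00, 1.33 and 0.855 CPM in control 1 to 5. Col4a3 was at 0.372, 0.541, 0.712, 0.870 and 0.743 CPM in RetSat ko 1 to 5, against 0.677, 1.02, 0.739, 0.811 and 0.496 CPM in control 1 to 5. Both overlapped between genotypes, with RetSat ko 1 lowest. Their log2 fold changes were -0.12 ± 0.220 for Col4a6 (edgeR adjusted p = 0.851) and -0.21 ± 0.255 for Col4a3 (edgeR adjusted p = 0.768). Col4a3 shares 563 exon bases, or 5.65% of its exon length, with C430014B12Rik on the other strand, and the counting did not use strand. Col4a5 had a log2 fold change of -0.07 and Col4a4 one of -0.12.

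Of the other collagen genes 10 had a positive and 10 a negative log2 fold change, with a median of -0.03 and 0 of 20 past the test. Type VI chains were the most abundant of them. Col6a1 was at 22.4, 31.5, 35.3, 41.2 and 37.5 CPM in RetSat ko 1 to 5, against 28.7, 38.3, 30.8, 41.1 and 36.5 CPM in control 1 to 5. Col6a2 was at 23.1, 31.0, 36.3, 45.7 and 38.4 CPM in RetSat ko 1 to 5, against 30.9, 42.4, 32.3, 39.0 and 36.6 CPM in control 1 to 5. Both were lowest in RetSat ko 1 and highest in RetSat ko 4. Col6a1 had a log2 fold change of -0.06 ± 0.153 (edgeR adjusted p = 0.893) and Col6a2 one of -0.05 ± 0.159 (edgeR adjusted p = 0.914).

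Col6a4, a mouse type VI chain that can take the place of the alpha-3 chain, was at 21.8, 27.3, 29.5, 37.9 and 34.9 CPM in RetSat ko 1 to 5, against 27.2, 33.1, 29.8, 38.7 and 32.5 CPM in control 1 to 5. The lowest library was again RetSat ko 1, and the highest was control 4. Its log2 fold change was -0.09 ± 0.142 (edgeR adjusted p = 0.826). Col6a3 and Col6a5 had log2 fold changes of 0.04 and 0.0027, and in all 5 type VI genes RetSat ko 1 lay under every control library.

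Fibril-associated genes were led by Col14a1, which binds the surface of type I fibres. It was at 8.09, 13.6, 12.8, 15.6 and 14.1 CPM in RetSat ko 1 to 5, against 10.4, 13.8, 12.3, 19.2 and 14.8 CPM in control 1 to 5. Control 4 was highest and RetSat ko 1 lowest, and the log2 fold change was -0.13 ± 0.188 (edgeR adjusted p = 0.80). Col12a1, its close relative, had a log2 fold change of -0.07, Col16a1 one of 0.05, Col22a1 one of 0.10 and Col9a3 one of -0.27.

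The smallest unadjusted p-values of this class belonged to low genes that did not follow the library pattern of the abundant ones. Col9a2, a chain of cartilage type IX collagen, was at 0.274, 0.793, 0.309, 0.405 and 0.245 CPM in RetSat ko 1 to 5, against 0.297, 0.307, 0.0935, 0.259 and 0.441 CPM in control 1 to 5. RetSat ko 2 was highest and control 3 lowest, and the log2 fold change of 0.53 ± 0.411 had a 95% interval of -0.36 to 1.43 (edgeR adjusted p = 0.619). Col20a1 was at 1.04, 0.883, 1.77, 1.06 and 0.981 CPM in RetSat ko 1 to 5, against 1.65, 1.14, 1.51, 1.07 and 1.55 CPM in control 1 to 5. RetSat ko 3 was above all control libraries and the other RetSat ko libraries were below all of them. The log2 fold change was -0.27 ± 0.215 (edgeR adjusted p = 0.624), and Col20a1 shares 79 exon bases with BX649560.1.

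Col7a1, the anchoring fibril collagen of stratified epithelia, was at 1.97, 0.874, 2.16, 0.757 and 1.36 CPM in RetSat ko 1 to 5, against 0.760, 1.68, 0.430, 0.958 and 1.54 CPM in control 1 to 5. Both genotypes ranged widely and overlapped, and RetSat ko 1 was among the highest libraries here. The log2 fold change was 0.40 ± 0.393, with a 95% interval of -0.46 to 1.26 (edgeR adjusted p = 0.704). The transmembrane genes gave 0.03 for Col23a1, -0.14 for Col13a1, 0.25 for Col17a1 and -0.15 for Col25a1 on the log2 scale. The last members had log2 fold changes of 0.20 for Col8a2, -0.07 for Col8a1 and 0.24 for Col28a1.

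Several members lie next to a partner in the genome. Col4a1 and Col4a2 stand head to head on chromosome 8 (minus strand chr8:11248423-11362826 and plus strand chr8:11362805-11499287, GRCm39), with 22 overlapping bases. The head-to-head pairs Col4a4 and Col4a3 on chromosome 1, and Col4a6 and Col4a5 on the X chromosome, are 71 and 1308 bases apart. Col3a1 and Col5a2 are tail to tail on chromosome 1 with a gap of 24614 bases.

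The promoter windows below (RefSeq, GRCm38.p6, 250 bases before to 50 after the annotated start, each on its gene's strand) are shown because the abundant chains Col4a1 and Col4a2 share one start region, while Col3a1 and Col1a2 are abundant fibrillar chains with starts of their own. Capitals mark matches, on either strand, to one of 3 motifs. The TATA box was searched as TATAAA. The CCAAT box was searched as the letters that name it. The GC box was searched as GGGCGG. The windows are chr8:11312777-11313076 for Col4a1, chr8:11312555-11312854 for Col4a2, chr1:45311288-45311587 for Col3a1 and chr6:4505368-4505667 for Col1a2.
Col4a1: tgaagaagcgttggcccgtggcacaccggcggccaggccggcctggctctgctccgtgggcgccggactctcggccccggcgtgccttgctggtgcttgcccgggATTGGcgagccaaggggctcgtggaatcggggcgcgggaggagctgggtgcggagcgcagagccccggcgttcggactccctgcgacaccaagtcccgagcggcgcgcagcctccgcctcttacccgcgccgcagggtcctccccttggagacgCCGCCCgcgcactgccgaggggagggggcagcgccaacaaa
Col4a2: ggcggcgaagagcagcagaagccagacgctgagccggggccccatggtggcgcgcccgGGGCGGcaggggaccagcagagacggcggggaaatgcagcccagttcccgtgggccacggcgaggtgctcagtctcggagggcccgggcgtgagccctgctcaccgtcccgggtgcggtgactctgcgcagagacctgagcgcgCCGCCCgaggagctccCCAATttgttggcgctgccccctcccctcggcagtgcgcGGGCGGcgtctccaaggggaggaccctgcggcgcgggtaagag
Col3a1: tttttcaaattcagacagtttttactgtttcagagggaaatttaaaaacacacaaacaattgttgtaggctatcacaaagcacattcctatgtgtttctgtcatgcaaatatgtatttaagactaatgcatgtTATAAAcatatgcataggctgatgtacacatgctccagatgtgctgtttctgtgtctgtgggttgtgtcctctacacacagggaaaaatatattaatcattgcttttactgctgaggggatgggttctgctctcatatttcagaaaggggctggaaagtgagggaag
Col1a2: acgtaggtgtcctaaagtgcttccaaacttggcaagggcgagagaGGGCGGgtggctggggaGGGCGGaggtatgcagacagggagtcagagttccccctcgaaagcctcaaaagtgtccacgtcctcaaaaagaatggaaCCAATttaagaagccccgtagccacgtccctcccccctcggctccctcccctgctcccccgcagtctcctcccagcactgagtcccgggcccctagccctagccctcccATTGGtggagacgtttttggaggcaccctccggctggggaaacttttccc

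The Col4a1 and Col4a2 windows share 78 bases, read in opposite directions, and their annotated starts are 21 bases apart. Base composition differed, with 74.0% G and C for Col4a1, 73.7% for Col4a2, 61.0% for Col1a2 and 37.7% for Col3a1, the only one of the 4 with a TATA box match. A window was at hand for 31 of the 38 members. A GC box match was present in 21 of these 31 (67.7%), beside 35.7% of 32851 windows of all genes. CCAAT matches were in 12 of 31 beside 37.4% of all windows, and TATAAA in 4 of 31 beside 13.6%. The collagen windows were limited to a single window per gene, and the 32851 windows were not. The collagen windows held 59.9% G and C on average, and that of all windows was not computed. A GC box match depends on base composition, so the shares cannot be read as a trait of collagen genes. These are matches of letters and show no binding.

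The proportion of partner chains of one molecule differed between the genotypes by less than 1 SD. The Col1a1 to Col1a2 ratio per kilobase was 1.11 ± 0.0971 in RetSat ko and 1.10 ± 0.114 in control. Col4a1 to Col4a2 gave 1.42 ± 0.0602 in RetSat ko and 1.42 ± 0.130 in control. Col6a1 to Col6a2 gave 1.84 ± 0.0778 in RetSat ko and 1.84 ± 0.113 in control, and Col5a1 to Col5a2 gave 1.16 ± 0.175 in RetSat ko and 1.19 ± 0.114 in control. Such ratios use the annotated exon length, which counts all transcripts of a gene, so they need not equal the ratio of chains in the protein.

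Across the 10 libraries the abundant partners moved together. Col6a1 and Col6a2 had a Pearson r of 0.967 and a Spearman rho of 0.976 on log2 CPM (permutation p = 7e-05 and 5e-05, adjusted over 10 pairs to 0.0007 and 0.0005). Without the 2 libraries farthest from the median of the first-named gene of a pair, r was 0.910 (exact permutation p = 0.00409, n = 8). Col4a1 and Col4a2 had r = 0.946 and rho = 0.903 (permutation p = 0.00014 and 0.00085, adjusted 0.0007 and 0.00425), and r = 0.789 without the 2 farthest libraries (exact permutation p = 0.0214, n = 8). RetSat ko 1 was among the 2 libraries left out in every pair.

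The neighbours Col3a1 and Col5a2 had r = 0.890 and rho = 0.855 (permutation p = 0.00038 and 0.00283, adjusted 0.00127 and 0.0093), and r = 0.806 without the 2 farthest (exact permutation p = 0.0237, n = 8). The following 4 relations passed over 10 libraries and did not pass over the 8 that remained, where fewer samples also weaken the test. Col1a1 and Col1a2 had r = 0.915 and rho = 0.733 (permutation p = 0.00079 and 0.0211, adjusted 0.00197 and 0.0302), but r = 0.688 without RetSat ko 1 and control 3 (exact permutation p = 0.0617, n = 8). For Col5a1 and Col5a2, r was 0.835 and rho 0.842 (permutation p = 0.00109 and 0.00372, adjusted 0.00218 and 0.0093), and r was 0.712 without the 2 farthest (exact permutation p = 0.0525, n = 8). Col1a1 and Col3a1 gave r = 0.804 and rho = 0.685 (permutation p = 0.00562 and 0.0349, adjusted 0.00803 and 0.0436), then r = 0.595 (exact permutation p = 0.123, n = 8). Col6a1 and Col6a3 gave r = 0.879 and rho = 0.818 (permutation p = 0.00155 and 0.00594, adjusted 0.00258 and 0.0119), then r = 0.561 (exact permutation p = 0.154, n = 8).

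The low pairs gave no Pearson r past the threshold, and 1 of the 3 passed by rank. Col4a3 and Col4a4 had r = 0.602 and rho = 0.406 (permutation p = 0.0664 and 0.25, adjusted 0.0738 and 0.278), then r = 0.355 (exact permutation p = 0.370, n = 8). Col4a5 and Col4a6 had r = 0.611 and rho = 0.745 (permutation p = 0.0615 and 0.0185, adjusted 0.0738 and 0.0302), then r = 0.616 (exact permutation p = 0.102, n = 8), so that this pair passed by Spearman's rho only. Col8a1 and Col8a2, partners in type VIII collagen, had r = -0.0892 and rho = 0.0182 (permutation p = 0.781 and 0.973, adjusted 0.781 and 0.973), then r = -0.545 (exact permutation p = 0.154, n = 8). Here RetSat ko 1 and RetSat ko 2 were left out by their Col8a1 values, while control 3, lowest for Col8a2 at 0.393 CPM, was kept.

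**Figure D4:**
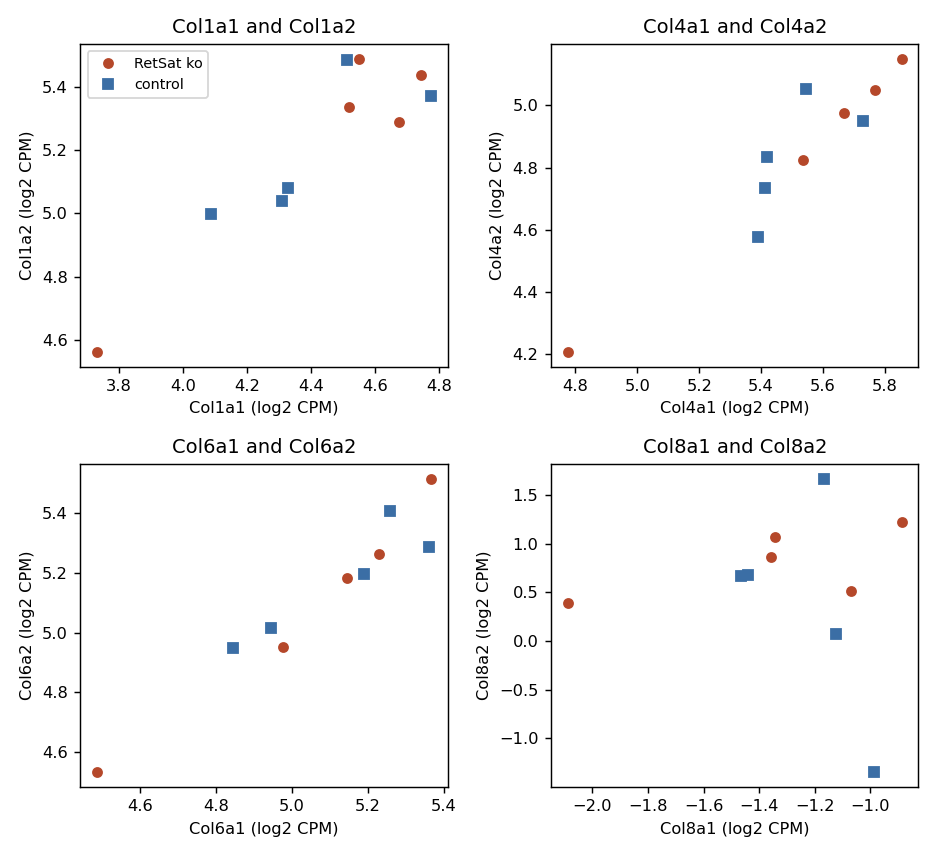
Log2 CPM of 4 pairs of partner chains in the 10 libraries, RetSat ko as circles and control as squares; each panel has its own axis range. RetSat ko 1 is the lowest point of the Col1a1 and Col1a2 (r = 0.915), Col4a1 and Col4a2 (r = 0.946) and Col6a1 and Col6a2 (r = 0.967) panels, and Col8a1 and Col8a2 show no relation (r = -0.0892).

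This joint movement was not special to partners. Over the 190 pairs of the 20 members highest per kilobase the median r was 0.779, and 188 pairs were positive. Without RetSat ko 1 the median was 0.569. Over the 153 pairs of the 18 members lowest per kilobase it was 0.0720, and 0.0162 without RetSat ko 1. All these pairs share the same 10 libraries, and in low genes counting noise takes a larger part of each value.

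RetSat ko 1 was the lowest library for 25 of 38 collagen genes, comprising all 8 basement membrane, 6 of 10 fibrillar and 11 of 20 other genes, against 15.8% of all genes tested. It lay under every control library in 26 of 38, against 20.3% of all genes. RetSat ko 4 was the highest library for 12 of 38, for which no share over all genes was computed. The coefficient of variation over libraries had a median of 24.7% in RetSat ko and 21.8% in control for collagen genes, beside 16.5% in RetSat ko and 14.4% in control for all genes. Over RetSat ko 2 to 5 alone the collagen median was 16.0%.

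Of the markers of collagen-making cells, the fibroblast and endothelial lists shared their lowest library with the collagen sum. The summed level of 10 fibroblast markers was 47.3, 79.3, 87.7, 88.8 and 83.4 CPM in RetSat ko 1 to 5, against 71.8, 86.3, 55.7, 88.6 and 58.9 CPM in control 1 to 5. The sum of 10 endothelial markers was 44.6, 72.5, 73.5, 80.2 and 75.8 CPM in RetSat ko 1 to 5, against 68.2, 67.7, 65.9, 76.4 and 73.3 CPM in control 1 to 5. In both lists RetSat ko 1 was the lowest library. The log2 fold change was positive for 8 of 10 fibroblast and 5 of 10 endothelial markers, and 0 of either list passed the edgeR test. Their part in the collagen levels was not tested.

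Smooth muscle and pericyte markers had a different low library. The 10 smooth muscle markers summed to 921, 1214, 1334, 949 and 833 CPM in RetSat ko 1 to 5, against 1159, 1129, 557, 1134 and 923 CPM in control 1 to 5. The 5 pericyte markers summed to 90.2, 134, 146, 102 and 90.8 CPM in RetSat ko 1 to 5, against 124, 111, 42.6, 127 and 91.2 CPM in control 1 to 5. Control 3 was lowest in both. In bulk tissue, fewer cells of a type and less RNA per cell cannot be told apart.

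Enterocyte markers ran the other way. Their sum of 8 genes was 29139, 22314, 21880, 20921 and 22315 CPM in RetSat ko 1 to 5, against 30074, 23846, 36784, 28178 and 29437 CPM in control 1 to 5. RetSat ko 1 was the highest RetSat ko library, and control 3, with a low collagen sum, was the highest of all. All 8 had a negative log2 fold change (median -0.35, and -0.48 without RetSat ko 1). With all libraries 0 of them passed the edgeR test and 4 of 8 were under 0.05 unadjusted, against 12.2% of all genes. Pancreatic acinar markers were highest in RetSat ko 2 (2335 CPM) and RetSat ko 1 (403 CPM), followed by control 5 (210 CPM) and control 4 (99.1 CPM). B cell markers were highest in RetSat ko 2 (121 CPM), followed by control 4 (54.0 CPM). Defining cartilage and bone markers summed to 0.198 to 0.703 CPM in RetSat ko and 0.311 to 0.851 CPM in control, with Matn3 at 0 in all libraries. In all 12 marker lists 0 genes passed the edgeR test with all libraries. Without RetSat ko 1, 3 markers passed, in a fit that called 846 of 19001 genes (4.45%). The enterocyte genes Sis (edgeR adjusted p = 0.0298) and Treh (0.0445) were lower in RetSat ko, and the adipocyte gene Adrb3 (0.0336) was higher.

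**Figure D5:**
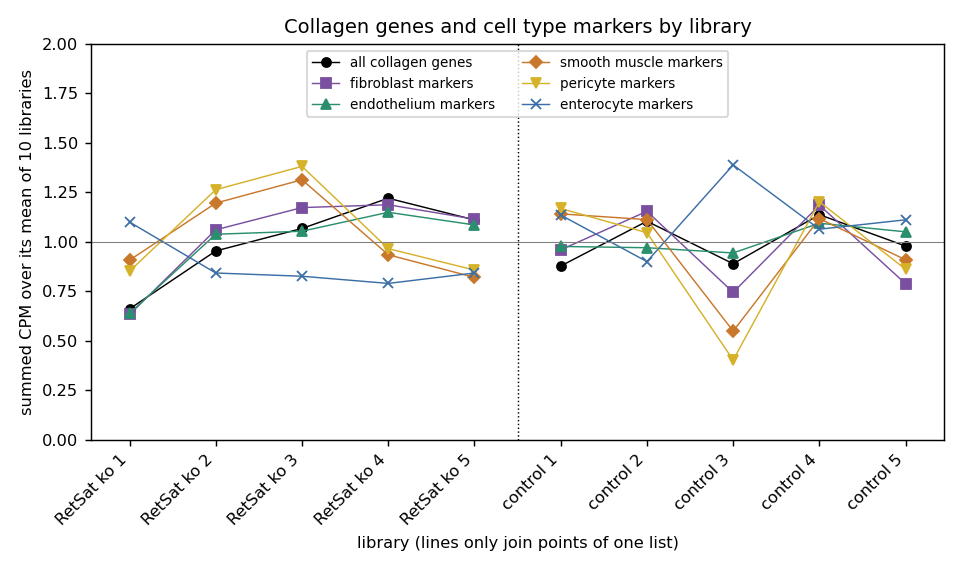
Summed CPM of collagen genes and of 5 cell type marker lists in each library, divided by the list's mean over the 10 libraries; RetSat ko left and control right of the dotted line. Collagen, fibroblast and endothelium sums are lowest in RetSat ko 1, smooth muscle and pericyte sums in control 3, and the enterocyte sum is highest in control 3.

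Leaving out RetSat ko 1 raised the log2 fold change of 34 of the 37 tested collagen genes and lowered it for Col7a1, Col24a1 and Col9a3. The library was picked for its low values in these same genes, so most had to rise. The collagen values below follow from that choice and are no independent test of a genotype difference. Of 38 members 0 passed the adjusted threshold in edgeR, while 846 of 19001 genes (4.45%) did. At an unadjusted p under 0.05 there were 3 of 38 members, against 4496 genes (23.7%), so the members' share lay below that of all genes. The 3 were Col5a1 (log2 fold change 0.25 ± 0.0970, edgeR adjusted p = 0.148), Col15a1 (0.26 ± 0.105, edgeR adjusted p = 0.162) and Col4a1 (0.21 ± 0.0868, edgeR adjusted p = 0.179). Of the 38, 29 then had a positive value. Class medians were 0.26 for fibrillar, 0.08 for basement membrane and 0.10 for other genes, beside 0.03 for all genes.

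Genes that make, process and bind collagen were measured as 7 further lists, and 0 of their members passed the edgeR test with all libraries. Of 21 genes for chain modification and folding 13 had a positive and 8 a negative log2 fold change (median 0.02), and 3 were under 0.05 unadjusted, a share near the 12.2% of all genes. Colgalt2, which adds galactose to collagen, was at 0.332 ± 0.0947 CPM in RetSat ko and 0.171 ± 0.0406 CPM in control (log2 fold change 0.95 ± 0.281, edgeR adjusted p = 0.291). Mia3 and Mia2, which load bulky cargo such as procollagen and lipoproteins at exit sites of the endoplasmic reticulum, had negative values. Mia3 was at 137 ± 12.3 CPM in RetSat ko and 164 ± 17.0 CPM in control (log2 fold change -0.26 ± 0.0855, edgeR adjusted p = 0.310). Mia2 was at 417 ± 73.0 CPM in RetSat ko and 547 ± 79.7 CPM in control (log2 fold change -0.39 ± 0.132, edgeR adjusted p = 0.314). Both passed as lower in RetSat ko when RetSat ko 1 was left out (edgeR adjusted p = 0.0467 for Mia3 and 0.0358 for Mia2). They were 2 of 21 genes of this list, beside 4.45% of all genes in that fit.

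Genes for procollagen cleavage and crosslinking gave 8 positive and 5 negative values of 13 tested (median 0.07), with 1 under 0.05 unadjusted, beside the same 12.2% of all genes. That was Bmp1, the C-propeptide protease, at 59.8 ± 10.02 CPM in RetSat ko and 78.9 ± 19.6 CPM in control (log2 fold change -0.40 ± 0.173, edgeR adjusted p = 0.391). Adamts2, the N-propeptide protease, had 0.42 ± 0.285 (edgeR adjusted p = 0.571), and Pcolce2, an enhancer of Bmp1, had 0.91 ± 0.786 (edgeR adjusted p = 0.663).

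Collagen breakdown genes and their inhibitors gave 9 positive and 5 negative values of 14 tested (median 0.07), with 2 under 0.05 unadjusted, again beside 12.2% of all genes. Timp4, an inhibitor of matrix metalloproteinases, was at 0.118, 0.189, 0.609, 0.487 and 0.714 CPM in RetSat ko 1 to 5, against 0.0464, 0.0768, 0.224, 0.0690 and 0.0735 CPM in control 1 to 5. RetSat ko 3 to 5 were above all other libraries, and RetSat ko 1 and RetSat ko 2 lay within the control range. The log2 fold change was 2.12 ± 0.551 (edgeR adjusted p = 0.291), and without RetSat ko 1 it was 2.35 (edgeR adjusted p = 0.0336). That call was 1 of 14 tested genes of the list, beside 4.45% of all genes in that fit. Mmp7, the Paneth cell metalloproteinase matrilysin, had 0.97 ± 0.423 (edgeR adjusted p = 0.404), and Mmp16 had -0.84 ± 0.567 (edgeR adjusted p = 0.570).

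Of 9 collagen receptor genes 4 were positive and 5 negative (median -0.04), led by Gp6 at -0.76 ± 0.397 (edgeR adjusted p = 0.455), Itga1 at -0.16 ± 0.105 (0.558) and Itgb1 at -0.10 ± 0.0699 (0.569). Without RetSat ko 1 only Ddr1 of this list passed, as lower in RetSat ko (1 of 9, beside 4.45% of all genes in that fit). The library left out held the highest Ddr1 value of all, 157 CPM. Ddr1 was at 88.1, 99.3, 99.9 and 79.7 CPM in RetSat ko 2 to 5, against 114, 120, 111, 136 and 123 CPM in control 1 to 5. Of 12 fibril-associated matrix genes 7 were positive (median 0.15), among them Postn at 0.27 ± 0.184 (edgeR adjusted p = 0.575), Eln at 0.37 ± 0.296 (0.630) and Sparc at 0.25 ± 0.205 (0.648). Of 15 laminins and basement membrane partners 7 were positive (median -0.02), with Agrn at -0.21 ± 0.0992 (edgeR adjusted p = 0.424), Lamb3 at -0.47 ± 0.304 (0.552) and Nid2 at -0.19 ± 0.141 (0.599). Of 12 genes of the TGF-beta axis, the best known inducer of fibrillar collagen, 5 were positive (median -0.02), with Smad2 at -0.14 ± 0.0652 (edgeR adjusted p = 0.420), Smad4 at -0.15 ± 0.0909 (0.532) and Smad7 at -0.26 ± 0.163 (0.538). In these 4 lists 0 genes were under 0.05 unadjusted.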

How the data were processed

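Jejunum RNA of 10 samples was sequenced. Each library has a deposited table of raw read counts by gene. The RNeasy kit, a DNase step and the NEBNext Ultra II RNA library kit were used, per the labels' protocols. The submitters' processing notes name Trimmomatic, STAR and GRCm39 (mm39). Counting was by featureCounts 2.0.1 on GENCODE M28 exons, per the file headers, with no option for strand or read pairs. Of counts between 1 and 10, 64.7% were even, against 50.6% of those of 1001 or more, so mates of read pairs may have been counted separately and counting precision is then lower than the counts imply. Coordinates are those of the files. Symbols were found for 52081 of 55414 identifiers (94.0%), and 0.810% of counts lie on the rest.

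Genotypes were compared in R 4.3.3 with edgeR 4.0.16 (filterByExpr, TMM, robust quasi-likelihood F-test, no covariates), with p-values adjusted by Benjamini-Hochberg over 18654 genes and called under 0.05. Intervals are 95% intervals of the coefficient. Levels per kilobase divide CPM by the exon length in the files. Correlations of log2 CPM (no pseudocount) used Python 3.11.15 and scipy 1.17.1 with 100000 permutations, two-sided, or all permutations (exact) for 8 libraries. The steps were tested on simulated data. As alternatives, RLE factors, upper-quartile factors, no filter, at least 10 counts in 5 libraries, DESeq2 1.42.0, voom in limma 3.58.1 with and without sample weights, the replicate number as a block, each library left out, other class assignments, and, chosen after seeing the data, halved counts were tried.

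Members and lists were chosen with earlier results of these data known, so lists are described by counts and medians without a test. Values in every library are given for the 4 genes of each class with the highest level per kilobase and the 3 with the smallest unadjusted p; of every other list the 3 genes with the smallest unadjusted p are named where the list is described gene by gene. Timp4, Mia3, Mia2 and Ddr1 without RetSat ko 1 are named as the calls of their lists.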

Additional observations from a re-analysis of the deposited data

Results flagged for a closer look

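In groups of 5 libraries, the gap of the highest or lowest library to its neighbour was compared with the range of the group. Of 92 groups of collagen values, 8 exceeded the 95% critical value of 0.71, where chance gives about 1 in 20, or 4.6. The groups share the same libraries, and many of the genes moved together. They are therefore not independent, and the 8 cannot be weighed against 4.6. In 3 of the 8 RetSat ko 1 was the low library, with Col1a1 at 13.3 CPM, Col1a2 at 23.6 CPM and Col16a1 at 2.10 CPM. RetSat ko 1 was also low for the per-kilobase ratio of Col4a1 to Col4a2, at 1.31. RetSat ko 2 was high for Col17a1, at 0.577 CPM, and for the per-kilobase ratio of Col5a1 to Col5a2, at 1.47. RetSat ko 3 was high for Col20a1, at 1.77 CPM. Among control libraries, control 4 was high for Col24a1, at 0.673 CPM.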

How the results depend on the processing

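Under all alternatives run 0 collagen genes were called, and the lowest adjusted p of any member was 0.148 (Col5a1, edgeR, without RetSat ko 1). The 6 genes called over all genes became 123 with DESeq2 and 12 with sample weights in voom, and 5 to 846 when 1 library was left out, the 846 being without RetSat ko 1. At an unadjusted p under 0.05 voom with sample weights found 1 of 37 collagen genes (4081 of 18654 genes in all), and edgeR found 3 of 38 without RetSat ko 1 (4496 of 19001, or 23.7%) and 1 of 37 without RetSat ko 3 (1697 of 18874). Class medians moved by less than the spread between libraries in all alternatives; with 1 library left out they lay between 0.05 and 0.26 for fibrillar, between -0.14 and 0.08 for basement membrane and between -0.06 and 0.10 for other genes. With sample weights 6 named members changed sign, to log2 fold changes of 0.015 for Col14a1, 0.010 for Col4a3, 0.084 for Col4a6, 0.040 for Col6a1, 0.035 for Col6a2 and 0.0084 for Col6a4. Signs also changed with 1 library left out, where log2 fold changes ranged between -0.23 and 0.0035 for Col14a1, -0.010 and 0.26 for Col15a1, -0.0088 and 0.20 for Col1a1, -0.013 and 0.18 for Col1a2, -0.053 and 0.17 for Col3a1, -0.021 and 0.21 for Col4a1, -0.039 and 0.17 for Col4a2, -0.23 and 0.012 for Col4a6, -0.15 and 0.053 for Col6a1, -0.17 and 0.063 for Col6a2, and -0.18 and 0.0079 for Col6a4. The cause was not tested. Likewise r ranged between -0.273 and 0.332 for Col8a1 and Col8a2, between 0.125 and 0.756 for Col4a3 and Col4a4, and between 0.417 and 0.810 for Col4a5 and Col4a6. Deviations from the genotype means of same-numbered libraries correlated at -0.149 to 0.00212, so the numbers do not pair them; with the replicate block 0 collagen genes and 4 genes in all were called. The 95% intervals of 20 of the 37 tested members lay within 1.5-fold, 19 of these being among the 20 highest per kilobase.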

Other observations

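Col5a3 was compared with fat tissue transcripts after its values were seen. Adipoq, a defining adipocyte gene, was at 0.0392, 0.342, 3.59, 5.07 and 6.58 CPM in RetSat ko 1 to 5, against 0.148, 0.875, 2.57, 0 and 0.0368 CPM in control 1 to 5. The 4 libraries with the most Adipoq (RetSat ko 3, 4 and 5 and control 3) held the 4 highest Col5a3 values of the 10 libraries, between 1.66 and 2.71 CPM. Timp4 was highest in the same 4 libraries, between 0.224 and 0.714 CPM. Of the other adipocyte markers Plin1 and Cfd were also highest there, while Adrb3 was low in control 3 (0.262 CPM). The sum of all 6 adipocyte markers ran otherwise. It was highest in control 3 (240 CPM), control 1 (227 CPM) and RetSat ko 1 (219 CPM). Nearly all of the sum in these libraries came from the remaining markers, Cidec and Lep. In RetSat ko 1 Adipoq, Plin1, Cfd and Adrb3 were at only 0.0392, 0.0196, 0.0588 and 0.235 CPM. The sum is therefore no measure of the Adipoq, Plin1 and Cfd pattern. Of the 6, 5 had a positive log2 fold change (median 2.08), and 0 passed the edgeR test with all libraries. The relation of Col5a3 to these transcripts was not tested.

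Control 3, lowest in smooth muscle markers, was also the lowest library for 6 low or moderate collagen genes, Col27a1, Col11a2, Col11a1, Col8a2, Col7a1 and Col9a2. For this count no share over all genes was computed, and a relation to the muscle markers was not tested. In control 3 Col11a1 had 2 counts and Col9a2 10. Col8a2 was at 1.31, 2.33, 2.10, 1.81 and 1.43 CPM in RetSat ko 1 to 5, against 3.17, 1.60, 0.393, 1.59 and 1.05 CPM in control 1 to 5, so that the control libraries alone spanned 8.07-fold. Col25a1 ran the other way, with its highest value, 0.421 CPM, in control 3.

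Vwf, the clotting factor gene of endothelium and one of its 10 markers, had a log2 fold change of -0.40 ± 0.109 (edgeR adjusted p = 0.291) and was at 5.32, 6.46, 7.63, 7.59 and 7.78 CPM in RetSat ko 1 to 5, against 9.33, 9.38, 8.48, 9.27 and 9.35 CPM in control 1 to 5. Every RetSat ko library was below every control library, which holds for 2.31% of all genes in either direction, and the gene was singled out after its values were seen.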
